A study of Drosophila melanogaster with 42 samples.

Results

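The nuclear genes for the protein subunits of the mitochondrial ribosome were examined in male offspring of restrained and unrestrained Drosophila melanogaster fathers. The members were the rows whose symbol begins with mRpL or mRpS followed by a number, which gave 72 of the 15061 genes in each of 4 deposited tables. Of these, 46 encode proteins of the large subunit (mRpL) and 26 encode proteins of the small subunit (mRpS). All 72 passed a minimum mean of 1 FPKM (fragments per kilobase of transcript, scaled to the number of mapped fragments) in each of the 3 tables that could be tested.

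RNA was sequenced from pools of 50 males aged 5 to 6 days, separated into heads and the other parts of the body, in 42 samples. Fathers in the restrained groups had been held between sponge plugs for 10 h in each of 3 sessions, and fathers in the unrestrained groups had been left free for the same time without food. Fathers were either w1118, the wild-type strain of the study, or dATF-2KO, which lacks the whole gene for the stress-activated transcription factor dATF-2 and was backcrossed to w1118. All mothers were w1118, so offspring of dATF-2KO fathers carry at most a single copy of the deletion. The groups were restrained and unrestrained dATF-2KO other parts, restrained and unrestrained w1118 heads, and restrained and unrestrained dATF-2KO heads, with 5 libraries each. Restrained and unrestrained w1118 other parts had 6 samples each, but the library columns of that table carry no sample or group name. For those flies the authors' mean of the restrained group is given and no comparison was made. Each library is a pool whose origin in a separate cross is not stated, so the p-values reflect only how these pools vary, which may be technical.

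The marker genes matched the tissue labels. The 10 photoreceptor markers averaged between 10.2 and 10.3 on the log2(FPKM + 0.5) scale in every head library, against 0.286 to 0.458 in other parts. The 8 accessory gland markers averaged 10.1 to 10.3 in other parts and -0.281 to 1.31 in heads. A pair of libraries stood apart. The 6 egg and yolk markers summed to 2015 FPKM in restrained replicate 3 of dATF-2KO other parts, against 2.90 to 4.51 FPKM in the 9 other libraries of that table. They summed to 1214 FPKM in restrained replicate 3 of dATF-2KO heads, against 31.7 to 59.4 FPKM in the 9 others. Values without these libraries are therefore given below. Levels of Atf-2, the gene for dATF-2, were 9.93 to 13.1 FPKM in dATF-2KO other parts, beside an authors' mean of 22.5 FPKM in restrained w1118 other parts. In heads labelled dATF-2KO they were 69.1 to 75.0 FPKM, against 66.7 to 74.7 FPKM in w1118 heads, and thus not lower under the knockout label there.

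Mitochondria carry their own ribosomes, which translate the few messenger RNAs of the mitochondrial genome, all of them for subunits of the respiratory chain and ATP synthase. The ribosomal RNAs come from mitochondrial DNA, but every protein of the particle is encoded in the nucleus, made in the cytosol and imported. Some of the proteins are counterparts of bacterial ribosomal proteins and share their number, while others were added in the mitochondrial lineage and have no bacterial counterpart.

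By this numbering, 28 large-subunit genes had a number up to 36 and 14 small-subunit genes a number up to 21, the ranges used in bacteria. The other 18 large-subunit and 12 small-subunit genes had higher numbers, called mitochondrial numbers here. The number alone does not settle whether a protein has a bacterial counterpart, so these are classes of names only. The tables list 3 genes under one number, mRpS18A, mRpS18B and mRpS18C. The tko and bonsai genes encode a further pair of small-subunit proteins under other names and were outside the rule.

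The 72 genes were short and closely spaced. In the BDGP6.54 annotation the transcript with the longest coding part had a median of 778.5 nt and 2 exons, against 1686 nt and 3 exons for the 13986 protein-coding genes. Their coding parts had a median of 579 nt (range 192 to 1671 nt), against 1173 nt. A protein-coding gene on the opposite strand began within 500 bases upstream of the start of 51 of the 72 genes (70.8%), against 24.9% of protein-coding genes. They were spread over 5 chromosome arms, with 21 on 3R, 17 on 3L, 12 on 2L, 11 on 2R and 11 on X. In the tables, whose coordinates are of the dm3 build, the locus of 40 of the 72 genes (55.6%) overlapped that of another listed gene, against 43.6% of all genes. How reads of overlapping genes were assigned by strand is not given in the sources used here, so the values of those 40 genes are less certain.

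Levels of the mRp genes were intermediate and close together. The median gene had a mean of 28.5 FPKM in restrained and 27.0 FPKM in unrestrained dATF-2KO other parts. The corresponding medians were 24.3 and 24.4 FPKM in w1118 heads and 23.2 and 22.2 FPKM in dATF-2KO heads. In the authors' means for restrained w1118 other parts the median was 33.3 FPKM. Within the tables tested, the median member stood between the 58.9th and the 62.8th percentile of all genes tested. The 90th percentile of the members was 2.67 to 2.92 times their 10th percentile, whereas that ratio was 41.2 to 48.3 over all genes tested. In other parts and heads alike, these are levels in bulk tissue, in which fewer cells of a type and less RNA per cell cannot be told apart.

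The gene with the highest level in every table was mRpS5, whose bacterial counterpart takes part in accurate decoding. In dATF-2KO other parts it had 155, 160, 152, 178 and 156 FPKM in the restrained libraries, against 158, 145, 158, 157 and 171 FPKM in the unrestrained libraries. In w1118 heads it averaged 177 ± 7.02 FPKM in restrained and 180 ± 11.2 FPKM in unrestrained libraries (SD, n = 5 each). In the authors' means for restrained w1118 other parts it was at 176 FPKM. The next member in these authors' means was mRpS7 at 103 FPKM, and none of the others exceeded 80.7 FPKM in the unrestrained groups of the 3 tables tested, as the plot of levels by rank shows. After it in unrestrained dATF-2KO other parts came mRpS21 at 80.7 ± 9.74 FPKM, mRpS7 at 71.0 ± 4.30 FPKM and mRpL28 at 58.7 ± 4.40 FPKM (SD, n = 5), of which mRpS21 and mRpS7 lay within their joint spread. In heads the next genes were mRpL33, mRpL34 and mRpS21. Their levels were 75.6 ± 6.59, 61.3 ± 6.29 and 55.5 ± 5.67 FPKM in unrestrained w1118 heads (SD, n = 5). All of the genes named here carry bacterial numbers.

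**Figure D1:**
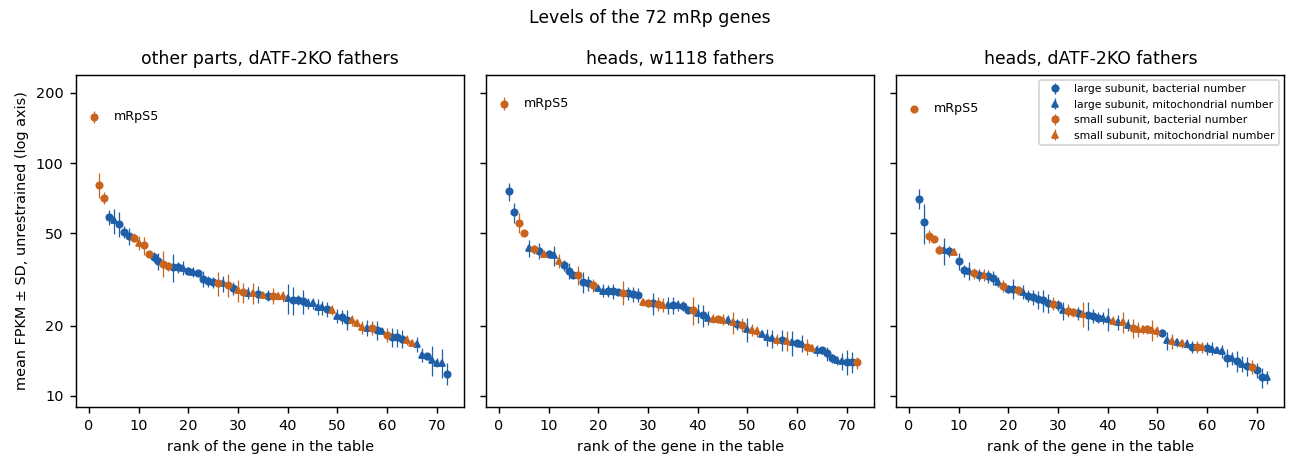
Mean FPKM ± SD (log axis) of the 72 mRp genes in the 5 unrestrained libraries of each table, ordered by level from rank 1 to 72; colour gives the subunit and shape the type of number. mRpS5 stands alone at 158, 180 and 171 FPKM, and the lowest genes lie near 12 to 14 FPKM.

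At the low end, mRpL11, a counterpart of a bacterial protein of the site where translation factors bind, had 13.2 ± 2.19 FPKM in restrained and 12.5 ± 1.32 FPKM in unrestrained dATF-2KO other parts (SD, n = 5 each). It was followed there by mRpL50, mRpL39 and mRpL48, with unrestrained means of 13.9, 13.9 and 14.3 FPKM, which did not differ beyond their spread. In unrestrained w1118 heads the 4 lowest genes were mRpS18B, mRpL19, mRpL18 and mRpL39, all between 13.9 and 14.1 FPKM. In unrestrained dATF-2KO heads they were mRpL39, mRpL19, mRpL32 and mRpS18B, between 12.0 and 13.3 FPKM. Thus mRpL39 was among the 4 lowest in all 3 tables.

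The genes with bacterial numbers had the higher median level in each subunit and table. In unrestrained dATF-2KO other parts the medians were 28.3 FPKM for the 28 large-subunit genes with bacterial numbers and 24.1 FPKM for the 18 with mitochondrial numbers. For the small subunit they were 36.5 and 25.1 FPKM. In unrestrained w1118 heads the large-subunit medians were 27.2 and 20.3 FPKM and the small-subunit medians 26.4 and 20.96 FPKM. In unrestrained dATF-2KO heads they were 25.4 and 18.8 FPKM and 26.6 and 19.3 FPKM. The classes overlapped widely, and these medians were not tested.

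The 3 mRpS18 genes differed in level. In dATF-2KO other parts mRpS18A averaged 36.1 ± 4.23 FPKM in restrained and 36.001 ± 1.57 FPKM in unrestrained libraries, and mRpS18B 18.4 ± 0.945 and 18.3 ± 1.29 FPKM (SD, n = 5 each). The means of mRpS18C were 32.2 ± 1.12 FPKM in restrained and 27.8 ± 2.70 FPKM in unrestrained libraries. In unrestrained w1118 heads mRpS18C, at 24.9 ± 1.77 FPKM, and mRpS18A, at 23.4 ± 3.17 FPKM, lay within their spread, and mRpS18B was at 13.9 ± 0.830 FPKM. mRpS18B was the lowest of the 3 in every table tested.

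Heads and other parts came from tables that were scaled separately, so their levels are set side by side without a test. In unrestrained offspring of dATF-2KO fathers, the ratio of the head level to the level in other parts had a median log2 of -0.28 over the 72 genes, against 0.05 over 9154 genes tested in all 3 tables. The interquartile range of the log2 ratio was 0.44 among the members and 1.30 over all genes. The order of the members was similar in the 2 tissues, with Pearson's r = 0.86 between log2 levels and Spearman's rho = 0.83 across the 72 genes. This is a description across genes, which share their libraries and are not replicates.

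The 4 largest ratios of head to other parts belonged to mRpL55, mRpS25, mRpL33 and mRpL14. For mRpL55, which carries a mitochondrial number, the unrestrained dATF-2KO heads had 33.8, 44.7, 43.1, 40.7 and 48.7 FPKM. The other parts of the same group had 21.7, 25.4, 23.8, 25.7 and 23.4 FPKM, and the log2 ratio was 0.81. The log2 ratio was 0.62 for mRpS25 (41.6 FPKM in heads and 27.1 FPKM in other parts), 0.53 for mRpL33 (70.2 and 48.6 FPKM) and 0.34 for mRpL14 (32.2 and 25.5 FPKM).

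At the other end stood mRpS17, mRpS18A, mRpS7 and mRpS21, all of the small subunit and all with bacterial numbers. For mRpS17, a counterpart of a bacterial protein that binds ribosomal RNA early in assembly, unrestrained dATF-2KO heads had 24.8, 22.5, 22.5, 22.2 and 22.3 FPKM. The other parts had 43.1, 51.2, 41.1, 43.2 and 43.3 FPKM, and the log2 ratio was -0.96. The ratios of mRpS18A, mRpS7 and mRpS21 were -0.90, -0.74 and -0.74. Just above them came mRpL51 and mRpL42, both large-subunit genes with mitochondrial numbers, at -0.72 each. In restrained w1118 offspring, set against the authors' mean for other parts, mRpL55 again had the highest ratio, 0.73, and mRpS7 the lowest, -1.16, followed by mRpS17 at -1.04. Across the 72 genes the 2 sets of ratios had r = 0.78 and rho = 0.71; the 2 sets use different fathers and no library in common.

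**Figure D2:**
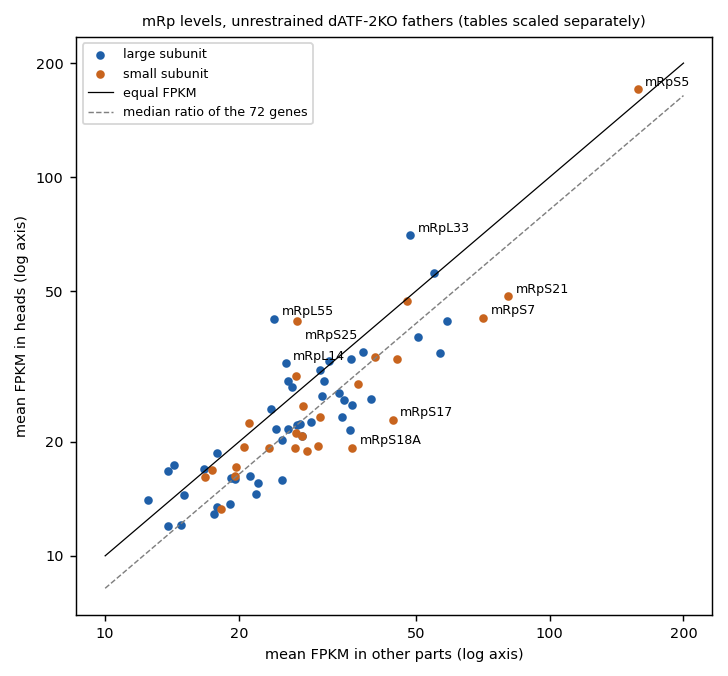
Mean FPKM in heads (vertical, log axis) against mean FPKM in other parts (horizontal, log axis) for the 72 mRp genes in unrestrained offspring of dATF-2KO fathers, 5 libraries per tissue; the solid line marks equal FPKM and the dashed line the median ratio, a log2 of -0.28. mRpL55 and mRpS25 lie farthest above and mRpS17 and mRpS18A farthest below.

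Between father genotypes the levels were also only set side by side. In unrestrained heads the log2 ratio of dATF-2KO to w1118 had a median of -0.07 over the members and -0.0061 over all genes. Among members it ran between -0.30 (mRpL20) and 0.09 (mRpS17). In restrained other parts the ratio to the authors' w1118 mean had a median of -0.31 over the members and -0.07 over all genes, between -0.76 (mRpS26) and 0.14 (mRpL32).

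Spread between replicate libraries was larger for the members than for all genes within their range of levels in heads, and similar in other parts. That range reaches up to mRpS5, far above the median member. The genes within it include the members and were not matched to them by level. The median coefficient of variation of the members was 6.13% in restrained and 6.82% in unrestrained w1118 heads, against 3.91% and 4.04% for all genes within the members' range of levels. In dATF-2KO heads it was 5.52% and 6.54%, against 3.39% and 3.87%. In dATF-2KO other parts it was 6.42% and 7.04%, against 6.77% and 6.51%. The members' transcripts were shorter than those of other genes, as given above; the part of length in this spread was not tested. Among members the largest coefficient in other parts was that of mRpL55, 20.7%, which had 19.0, 28.4, 32.8, 28.5 and 22.7 FPKM in the restrained libraries.

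The comparison of restrained with unrestrained fathers asks whether the stress of the father alters RNA levels in the sons. Calls were made with limma on log2(FPKM + 0.5). They required a change of at least 1.4-fold and an adjusted p under 0.05, with Benjamini-Hochberg adjustment over all genes of the table. None of the 72 mRp genes was called in any of the 3 comparisons. In every comparison the 95% limma interval of each of the 72 changes lay within 1.4-fold in both directions, as the plot of changes shows. Intervals this narrow were also common among all genes, at 90.4% in dATF-2KO other parts, 91.5% in w1118 heads and 91.9% in dATF-2KO heads. Within 1.2-fold lay the intervals of 56 members in dATF-2KO other parts, against 65.9% of all genes. In w1118 heads and dATF-2KO heads the counts were 65 each, against 78.1% and 79.9%.

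**Figure D3:**
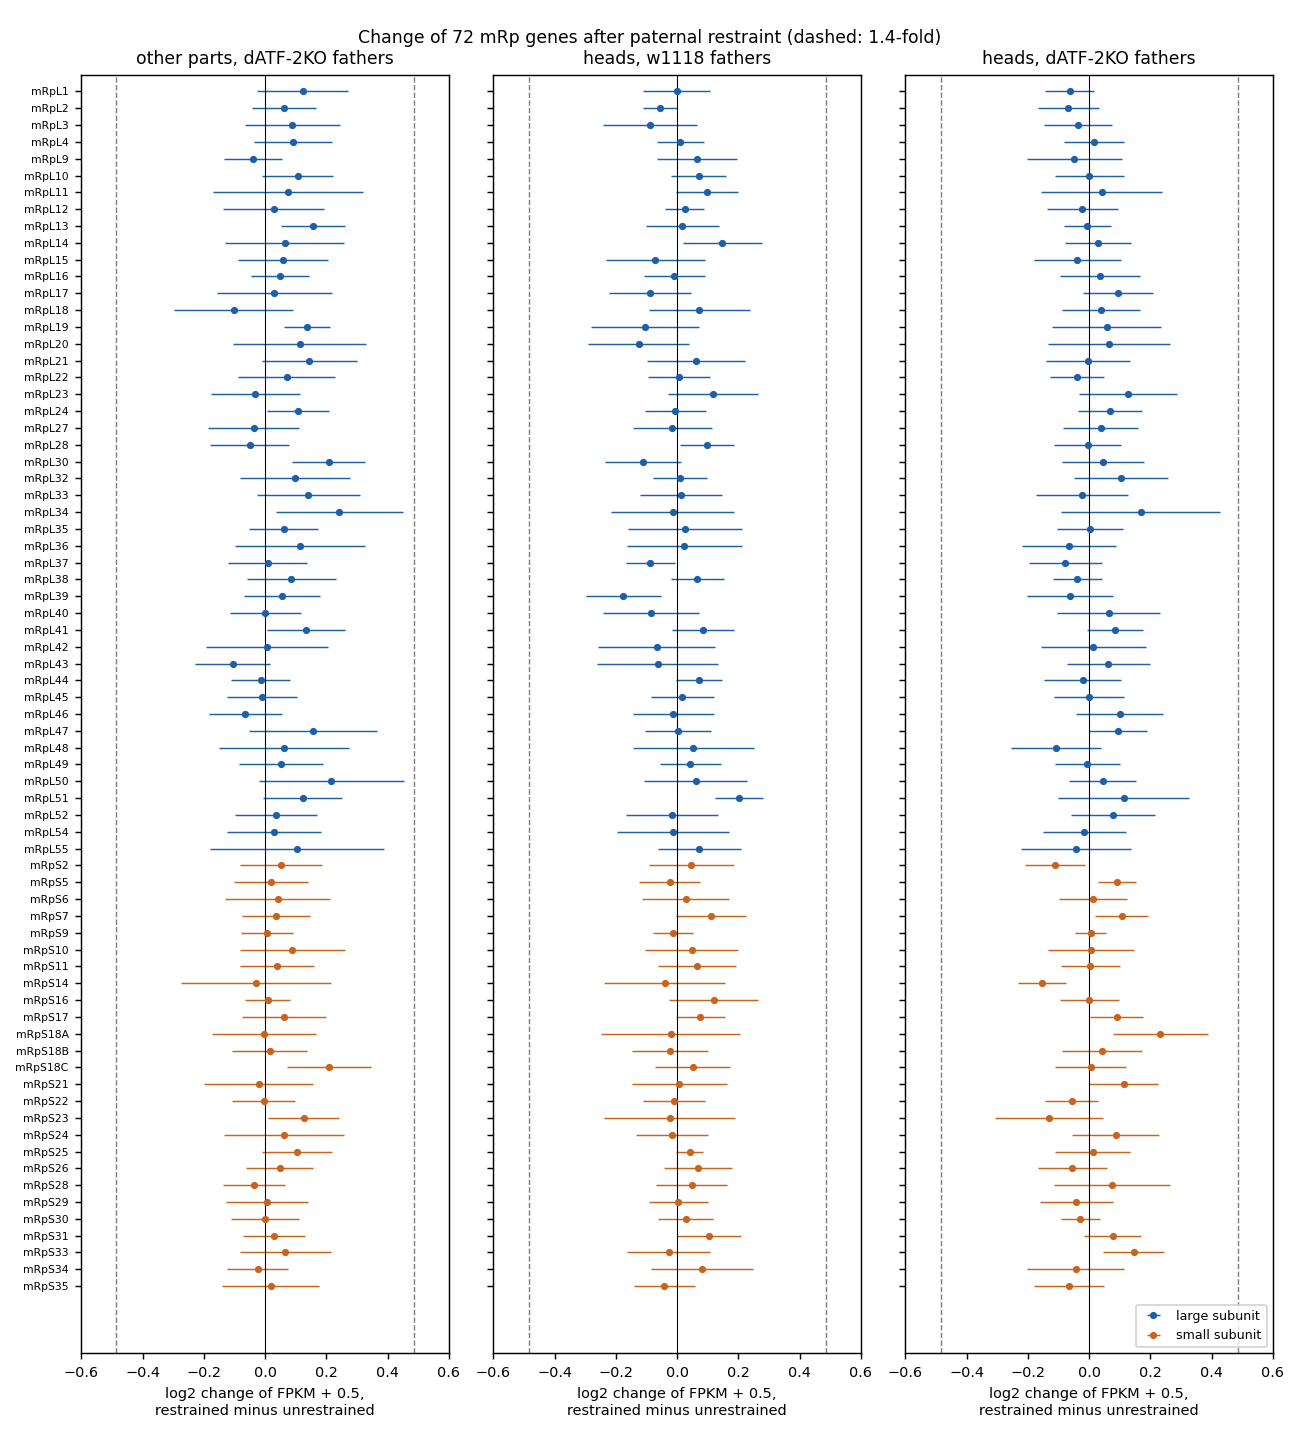
Log2 change of each of the 72 mRp genes, restrained minus unrestrained, with its 95% limma interval (5 libraries per group), in other parts and heads with dATF-2KO fathers and in heads with w1118 fathers; dashed lines mark 1.4-fold. Points lie between -0.18 and 0.24, and no interval reaches a dashed line.

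In dATF-2KO other parts, 0 of 72 genes were called by limma, against 0.146% of 12363 genes. At an unadjusted p under 0.05, 8 members were higher in restrained offspring and 0 lower, against 3.07% and 4.26% of all genes. These 8 were mRpL19, mRpL30, mRpS18C, mRpL13, mRpL34, mRpS23, mRpL24 and mRpL41, with adjusted p between 0.295 and 0.655 (limma). The log2 change was positive for 57 of 72 members, against 42.1% of all genes, and ranged between -0.11 and 0.24. The 8 accessory gland markers summed to 28517 to 31995 FPKM in restrained libraries, against 21150 to 24465 FPKM in unrestrained libraries, without overlap. Of them 1, Acp98AB, was called higher (log2 change 0.90), and 5 of 8 had negative changes; their part in the changes of the mRp genes was not tested. The median change was 0.052 over the members and -0.016 over all genes, with 0.063 for the large and 0.024 for the small subunit. The median itself depended on the scaling. The summed FPKM of the libraries was 1030750 to 1112220 in the restrained and 1014450 to 1055280 in the unrestrained group, and with every library scaled to the same sum the median of the members was 0.0012, with 37 of 72 positive. Under that scaling the median of all genes was -0.066, so that the median of the members was above it by 0.067, against 0.068 without the scaling. Without restrained replicate 3, the library with egg and yolk RNA, 0 members were called, 7 were higher and 0 lower at an unadjusted p under 0.05. Of all genes in that fit, 3.75% were higher and 3.24% lower at this threshold. The median of the members was then 0.041 and that of all genes -0.0039, a distance of 0.045.

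Of the members, mRpL19 had the smallest p in dATF-2KO other parts. Its gene lies on chromosome 3R at 4499831 to 4500918 (dm3), has 2 exons and overlaps no other listed gene. It had 16.7, 16.3, 16.5, 16.2 and 15.9 FPKM in restrained libraries, against 15.5, 14.2, 14.4, 14.9 and 15.1 FPKM in unrestrained libraries. All restrained values were above all unrestrained ones, by a small margin. The log2 change was 0.14 (SE 0.034, adjusted p = 0.295, limma).

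The other member without overlap was mRpL30, on chromosome X at 4541910 to 4543865 (dm3), whose locus overlaps that of Torsin. Such separation was seen for 2 of 72 members in this direction and 0 in the other, against 0.906% and 1.09% of all genes. mRpL30 had 35.9, 36.2, 36.9, 37.6 and 37.6 FPKM in restrained libraries, against 29.2, 33.1, 29.8, 31.7 and 35.7 FPKM in unrestrained libraries. The restrained values lay close together and the unrestrained ones were spread, with the highest just below the lowest restrained value. The log2 change was 0.21 (SE 0.054, adjusted p = 0.318, limma), while that of Torsin was 0.0065. For mRpS18C the restrained libraries had 32.8, 33.1, 30.4, 31.7 and 32.8 FPKM and the unrestrained ones 27.0, 31.3, 25.4, 25.5 and 30.0 FPKM, which overlapped; its log2 change was 0.21 and that of CG15536, which shares its locus, 0.17. The largest change was that of mRpL34, 0.24, with 64.8 ± 6.50 FPKM in restrained and 54.8 ± 6.91 FPKM in unrestrained libraries (SD, n = 5 each).

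**Figure D4:**
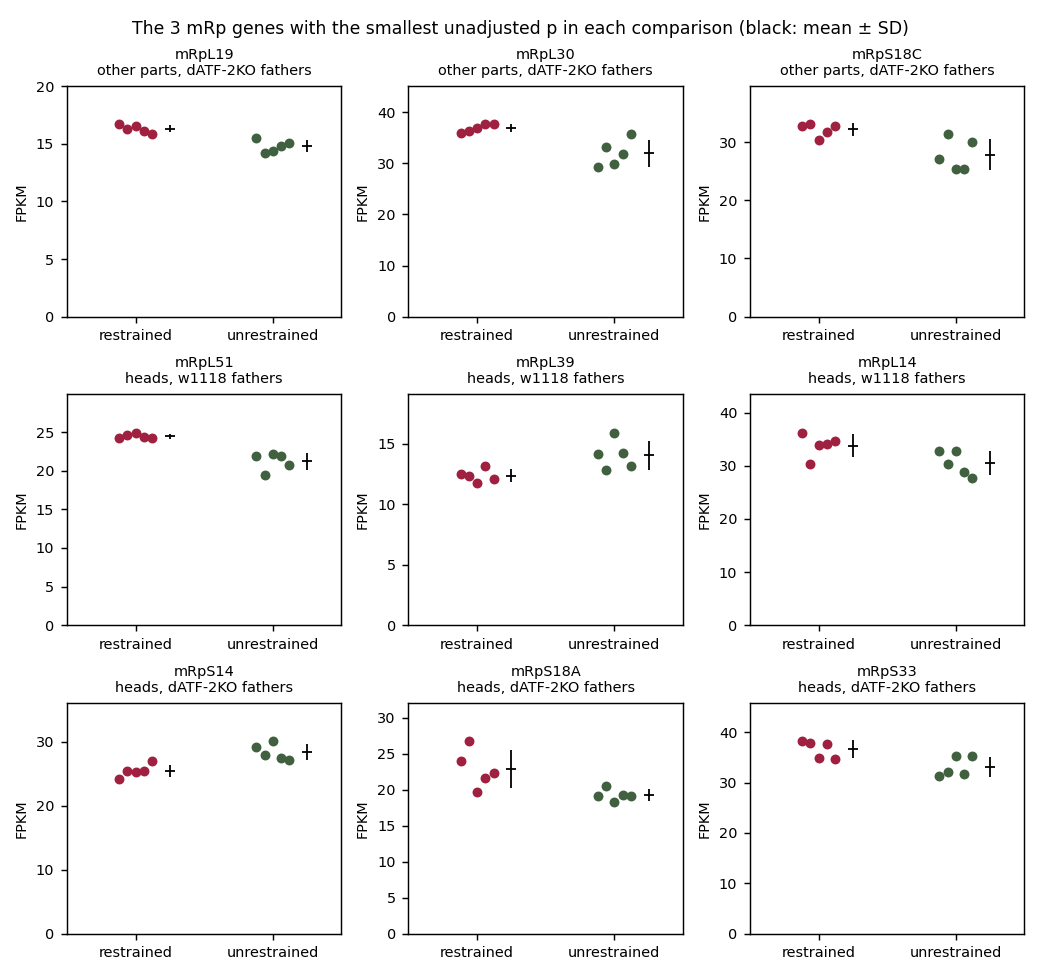
FPKM in each of 5 restrained (left) and 5 unrestrained (right) libraries for the 3 mRp genes with the smallest unadjusted p in each comparison, with mean ± SD in black and axes starting at 0. The groups of mRpL19, mRpL30, mRpL51 and mRpS14 do not overlap, and those of the other 5 genes do.

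In w1118 heads, 0 of 72 members were called by limma, against 0.0907% of 9924 genes. At an unadjusted p under 0.05, 3 members were higher (mRpL51, mRpL14, mRpL28) and 3 lower (mRpL39, mRpL37, mRpL2), against 7.06% and 8.69% of all genes. All 6 belong to the large subunit, as do 46 of the 72 members. The median change was 0.0095 for the large and 0.027 for the small subunit, and the subunits were not compared by a test. The changes ranged between -0.18 and 0.20, and their median was 0.011, against -0.0085 over all genes. Of the members 42 of 72 had a positive change, against 45.1% of all genes. With every library scaled to the same FPKM sum the direction turned, with a median of -0.025 over the members and -0.043 over all genes and 28 of 72 members positive. The mean of all 10 photoreceptor markers was slightly lower in restrained heads, at 10.21 to 10.25, against 10.28 to 10.29 in unrestrained heads. Of these 10, 7 reached an unadjusted p under 0.05 (limma) with a decrease and 1 with an increase. The 6 flight muscle markers averaged 5.56 to 5.66 in restrained and 5.67 to 5.75 in unrestrained heads, again without overlap. Among these 6, 2 passed the same unadjusted threshold with a decrease and 1 with an increase. The part of these markers in the changes of the mRp genes was not tested.

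Without the threshold on fold, 1 member passed the adjusted p, against 0.645% of all genes in that direction. This was mRpL51, a large-subunit protein without a bacterial counterpart, whose single-exon gene lies on chromosome 2L at 8515096 to 8517380 (dm3) in a locus shared with CG13089. Its levels were 24.2, 24.6, 24.9, 24.3 and 24.3 FPKM in restrained and 21.9, 19.4, 22.2, 21.9 and 20.8 FPKM in unrestrained heads. Every restrained library was above every unrestrained one, which held for 1 member in this direction and 0 in the other, against 2.73% and 2.69% of all genes. The log2 change was 0.20 (SE 0.035, adjusted p = 0.0277, limma), or 1.15-fold, and that of CG13089 was 0.053. The adjusted p was 0.0224 to 0.0792 when single libraries were left out, under the threshold in 3 of 10 such fits, and highest without restrained replicate 3. Over 10 other alternatives it was under the threshold in 8. It was 0.185 with the replicate number as a block and 0.0510 with libraries scaled to the same sum. In dATF-2KO heads and dATF-2KO other parts the log2 changes of mRpL51 were 0.11 and 0.12, with adjusted p = 0.741 and 0.687 (limma).

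Among the members lower in restrained w1118 heads, mRpL39 had 12.5, 12.3, 11.7, 13.1 and 12.1 FPKM in restrained libraries, against 14.1, 12.9, 15.9, 14.2 and 13.2 FPKM in unrestrained libraries. The groups overlapped at 1 restrained library, and the log2 change was -0.18 (SE 0.055, adjusted p = 0.162, limma). mRpL14, whose bacterial counterpart lies at the contact between the subunits, averaged 33.8 ± 2.20 FPKM in restrained and 30.5 ± 2.23 FPKM in unrestrained heads (SD, n = 5 each; log2 change 0.15, adjusted p = 0.259, limma).

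In dATF-2KO heads, 0 of 72 members were called by limma, against 0.0100% of 9975 genes. At an unadjusted p under 0.05, 5 members were higher (mRpS18A, mRpS33, mRpS5, mRpS7, mRpS17) and 2 lower (mRpS14, mRpS2), against 6.05% and 4.39% of all genes. All 7 belong to the small subunit, as do 26 of the 72 members, whereas those below this threshold in w1118 heads were of the large subunit. The median change was 0.0082 for the large and 0.0057 for the small subunit, and the subunits were not compared by a test. The changes ranged between -0.15 and 0.23, with a median of 0.0057 over the members and -0.0020 over all genes, and 43 of 72 were positive, against 48.5% of all genes. With every library scaled to the same FPKM sum the direction turned here too, with medians of -0.024 over the members and -0.031 over all genes and 30 of 72 members positive. Without restrained replicate 3, the library with yolk RNA, 0 members were called, 4 were higher and 1 lower at an unadjusted p under 0.05. Of all genes in that fit, 5.09% were higher and 3.51% lower at this threshold. The 4 fat body markers averaged 4.46 to 4.57 in restrained and 4.64 to 4.78 in unrestrained heads, without overlap. Only 2 of these 4 reached the minimum mean of 1 FPKM, and 1 was lower at an unadjusted p under 0.05. The lowest of the 4 had a mean of 0.041 FPKM. The part of the fat body markers in the changes of the mRp genes was not tested.

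The smallest p in dATF-2KO heads was that of mRpS14, on chromosome X at 19373415 to 19373950 (dm3), a gene of 2 exons that overlaps no other listed gene. It had 24.2, 25.5, 25.2, 25.4 and 26.9 FPKM in restrained heads, against 29.2, 28.0, 30.1, 27.5 and 27.1 FPKM in unrestrained heads. The groups did not overlap, although a restrained and an unrestrained library nearly met; 1 member was separated in this direction and 0 in the other, against 0.792% and 1.43% of all genes. The log2 change was -0.15 (SE 0.035, adjusted p = 0.168, limma). In the other tables mRpS14 had log2 changes of -0.041 (w1118 heads) and -0.031 (dATF-2KO other parts).

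The largest change in dATF-2KO heads was that of mRpS18A, with 23.9, 26.7, 19.7, 21.6 and 22.3 FPKM in restrained and 19.1, 20.6, 18.3, 19.3 and 19.1 FPKM in unrestrained heads. A single restrained library lay within the unrestrained range, and the log2 change was 0.23 (SE 0.070, adjusted p = 0.282, limma). For mRpS5, the most abundant member, restrained heads had 173, 177, 184, 185 and 191 FPKM and unrestrained heads 171, 170, 174, 164 and 175 FPKM, a log2 change of 0.090 (SE 0.028, adjusted p = 0.295, limma). Its change in w1118 heads was -0.025.

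Whether the change in heads differed between father genotypes was tested by the contrast of the w1118 change minus the dATF-2KO change over all 20 head libraries. By limma, 0 of 72 members passed an adjusted p under 0.05, against 0.153% of 9808 genes. At an unadjusted p under 0.05, the difference was positive for 0 members and negative for 3, against 5.03% and 6.59% of all genes. These 3 were mRpL17, mRpS33 and mRpS5, with differences of -0.18 (SE 0.082), -0.17 (SE 0.078) and -0.12 (SE 0.054) and adjusted p of 0.403, 0.408 and 0.422 (limma). Their changes were -0.090, -0.027 and -0.025 with w1118 fathers and 0.093, 0.146 and 0.090 with dATF-2KO fathers, so the directions were opposite. The median difference was 0.016 over the members and -0.0057 over all genes. For mRpL51 the difference was 0.089 (SE 0.11, adjusted p = 0.821, limma).

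The mean of log2(FPKM + 0.5) over the 72 genes gave the level of the whole group in each library. It was 4.83 to 4.91 in restrained and 4.79 to 4.89 in unrestrained dATF-2KO other parts. It was 4.67 to 4.73 in restrained and 4.63 to 4.75 in unrestrained w1118 heads, and 4.57 to 4.64 and 4.57 to 4.62 in dATF-2KO heads. The groups overlapped in each table. Together the 72 genes made up 0.210% to 0.229% of the summed FPKM in restrained and 0.216% to 0.224% in unrestrained dATF-2KO other parts, and between 0.273% and 0.301% in head libraries.

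**Figure D5:**
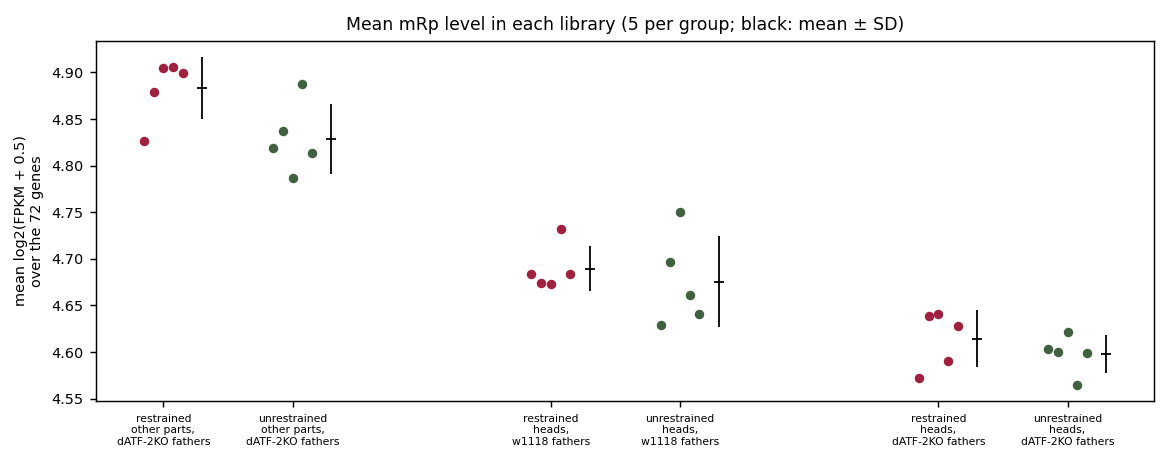
Mean log2(FPKM + 0.5) over the 72 mRp genes in each library, restrained left of unrestrained in each table, with the group mean ± SD in black (5 libraries per group); the vertical axis does not start at 0 and the tables were scaled separately. The ranges of the paired groups overlap in all 3 tables, for example 4.83 to 4.91 and 4.79 to 4.89 in dATF-2KO other parts.

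The small-subunit genes outside the rule were not called either. The tko gene, for the counterpart of a bacterial decoding-site protein, averaged 34.6 ± 2.39 FPKM in restrained and 30.9 ± 1.57 FPKM in unrestrained dATF-2KO other parts (SD, n = 5 each; log2 change 0.16, adjusted p = 0.527, limma). For bonsai the means were 23.8 ± 1.71 and 24.0 ± 1.05 FPKM. In heads neither had an unadjusted p under 0.05.

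Other nuclear genes of mitochondrial gene expression were read from lists of 7 translation factors, 13 genes grouped as aminoacyl-tRNA synthetases and 10 genes of mitochondrial DNA maintenance and transcription. Whether each of the 13, which include Slimp, has synthetase activity was not examined. By limma, 0 of these were called in any comparison. In dATF-2KO other parts, 1 translation factor (CG12413), 0 synthetases and 3 maintenance genes were higher at an unadjusted p under 0.05, and 0 genes of the 3 lists were lower, against 3.07% and 4.26% of all genes. Without restrained replicate 3 the counts were 1, 1 and 1 higher and 0 lower, against 3.75% and 3.24% of all genes. The 3 maintenance genes in all libraries were tam, the catalytic subunit of the mitochondrial DNA polymerase, with a log2 change of 0.19, mtSSB, which binds single-stranded mitochondrial DNA, with 0.22, and TFAM, which packages that DNA, with 0.12; their adjusted p were 0.370, 0.619 and 0.657 (limma). In w1118 heads mtTFB1 was higher and mtRNApol, the mitochondrial RNA polymerase, lower at that threshold, with changes of 0.060 and -0.081, where 7.06% and 8.69% of all genes were higher and lower. In dATF-2KO heads 1 synthetase, CG8257, was lower, with -0.093, where 4.39% of all genes were lower. Without restrained replicate 3 of these heads, 0 genes of the 3 lists passed that threshold, where 5.09% of all genes were higher and 3.51% lower.

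The 37 nuclear genes of the respiratory chain and ATP synthase had a median change of -0.061 in dATF-2KO other parts, where the mRp genes had 0.052. By limma, 0 were called, and at an unadjusted p under 0.05, 0 were higher and 5 lower, against the 3.07% and 4.26% of all genes given above. CoIV, a subunit of cytochrome c oxidase, averaged 948 ± 52.4 FPKM in restrained and 1086 ± 33.0 FPKM in unrestrained libraries (SD, n = 5 each; log2 change -0.20, adjusted p = 0.200, limma). The mean of the list was 8.91 to 9.14 in restrained and 9.07 to 9.19 in unrestrained libraries. The 6 flight muscle markers, of a tissue rich in mitochondria, averaged 7.57 to 7.91 and 7.78 to 7.89 there, and their part in these values was not tested. The lowest flight muscle value was that of restrained replicate 3, the library with egg and yolk RNA. Without it the list ranged over 9.05 to 9.14 and the markers over 7.78 to 7.91 in restrained libraries. The median change of the list was then -0.028, and CoIV had -0.16 (adjusted p = 0.200, limma). In that fit 1 gene of the list was higher and 5 lower at an unadjusted p under 0.05, against 3.75% and 3.24% of all genes. In w1118 heads 6 of the 37 genes were higher and 1 lower at an unadjusted p under 0.05, against 7.06% and 8.69% of all genes, with Cyt-c-p at 474 ± 15.4 FPKM in restrained and 440 ± 8.71 FPKM in unrestrained heads (log2 change 0.10, adjusted p = 0.0814, limma, n = 5 each). In dATF-2KO heads 4 were higher and 1 lower, against 6.05% and 4.39% of all genes. Without restrained replicate 3 of these heads, 1 was higher and 1 lower, against 5.09% and 3.51%. The medians of the list in w1118 heads and dATF-2KO heads were 0.0049 and -0.0037. Values of this list with every library scaled to the same FPKM sum are not given.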

How the data were processed

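RNA was isolated from pools of 50 males and sequenced. Per the labels and the study's methods, the authors processed reads with CASAVA, TopHat2, Cufflinks and Cuffnorm against the dm3 build and deposited FPKM per gene; their versions are not stated there. The study's methods give one approximate number of read pairs for all libraries, but FPKM carry no counts, so the depth behind a single value is not known here. The authors' own comparisons in the deposited tables (ratios, p-values, q-values and related columns) were not used. The 12 library columns of the w1118 other-parts table name no sample and were not used, so the planned test of that table was not run. Genes averaging 1 FPKM or more in a table were tested with limma 3.58.1 (R 4.3.3, trended prior, two-sided) on log2(FPKM + 0.5), which understates changes of low genes, and the fit was tested on simulated data. Figures were drawn with matplotlib 3.10.9 (Python 3.11.15). Named were, by rule, the 6 members with the smallest p per comparison, the 4 highest and lowest by level and by ratio of head to other parts, genes sharing a number, and up to 3 genes per further list; genes of counts of 8 or fewer and mRpL17 were named after their values were seen. Members and lists were chosen with earlier results of these data known. Other pseudocounts, minima, scalings, a robust fit, a replicate block and fits without single libraries were tried. Gene structure came from BDGP6.54, with no coordinates moved between builds.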

Additional observations from a re-analysis of the deposited data

Results flagged for a closer look

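Of 60 groups of 5 values examined, 4 held a library with a Dixon ratio above its 95% critical value, where chance gives about 1 in 20. This ratio is the gap to the nearest other library divided by the range of the 5 values. mRpS23 was at 21.8 FPKM in unrestrained replicate 3 of dATF-2KO other parts, against 18.7 to 19.5 FPKM in the 4 others. The mean log2(FPKM + 0.5) of the 72 mRp genes was 4.73 in restrained replicate 4 of w1118 heads, against 4.67 to 4.68 in the 4 others. mRpS5 was at 165 FPKM in restrained replicate 1 of w1118 heads, against 178 to 183 FPKM. mRpS18C was at 22.2 FPKM in unrestrained replicate 4 of dATF-2KO heads, against 25.2 to 26.3 FPKM.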

How the results depend on the processing

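Under every alternative tried, and without any single library, 0 members were called at an adjusted p under 0.05 and 1.4-fold; with no threshold on fold, 1 was called higher in w1118 heads (mRpL51). With every library scaled to the same FPKM sum, the median change of the members was 0.0012 in dATF-2KO other parts, -0.025 in w1118 heads and -0.024 in dATF-2KO heads. Without single libraries the medians were 0.041 to 0.065 in dATF-2KO other parts, -0.00039 to 0.030 in w1118 heads, 0.0034 to 0.021 in dATF-2KO heads and 0.0021 to 0.028 for the difference between genotypes. Members higher at an unadjusted p under 0.05 numbered 3 to 9, 1 to 9 and 1 to 8 in the 3 tables over the other alternatives and 5 to 12, 2 to 9 and 3 to 7 without single libraries. Replicate numbers did not pair the libraries: same-numbered libraries had correlations between -0.12 and 0.14, and 1 of 5 numbers per table matched best with itself. With the replicate block, 0 members were called. Over all genes, calls in w1118 heads numbered 0 to 64 higher and 0 to 46 lower over the alternatives, and 0 to 5 lower in dATF-2KO other parts. The upper ends, 64, 46 and 5, equal the counts of the main fit with no threshold on fold. With that threshold the main fit called 5 higher and 4 lower in w1118 heads and 3 lower in dATF-2KO other parts. Leaving out the libraries with egg and yolk RNA for the other mitochondrial lists was chosen after seeing the data. The w1118 other-parts comparison was not run. The counts behind single FPKM values were not known, and 5 pools per group and the scaling of the authors limit what small changes show.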

Other observations

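The 93 cytosolic ribosomal protein genes, whose products form the ribosome outside mitochondria, gave a further reference. By limma, 0 were called in any comparison. At an unadjusted p under 0.05, 26 of the 87 tested were higher and 1 lower in restrained w1118 heads, against 7.06% and 8.69% of all genes. In dATF-2KO heads 12 of 86 were higher and 0 lower, against 6.05% and 4.39%. Without restrained replicate 3 of these heads, the library with yolk RNA, the counts were 6 and 0, against 5.09% and 3.51%. In dATF-2KO other parts 10 of 93 were higher and 3 lower, against 3.07% and 4.26%. Without restrained replicate 3 there the counts were 8 and 3, against 3.75% and 3.24%. Their median log2 changes were 0.031, 0.027 and -0.00067, beside 0.011, 0.0057 and 0.052 for the 72 mitochondrial genes. The list mean was 8.99 to 9.05 in restrained and 8.97 to 9.01 in unrestrained w1118 heads, with overlap. Values of this list with every library scaled to the same FPKM sum are not given. That scaling moved the median change of all genes in w1118 heads from -0.0085 to -0.043, so these counts may depend on it.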
